A study of Mus musculus with 119 samples.

Results

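Fkbp5, Sgk1, Nr3c1, Nr3c2, Tsc22d3, Zbtb16, Crhr1, Plin4, Pdk4 and Cdkn1a are genes of the glucocorticoid and stress response. They were chosen by name, as 10 of the 55291 genes of the deposited tables, and all 10 passed the filter on low counts in every comparison. RNA was sequenced from tissue punches of 5 brain regions of female and male C57BL/6 mice (C57BL/6J by the labels, C57BL/6NCrl by the study text), in 20 groups of region, sex and treatment with 119 libraries, 6 per group except 5 from male vehicle VTA. THC groups had received 10 mg/kg of THC by daily intraperitoneal injection from postnatal day 28 to 48, and vehicle groups the injections without the drug. All groups were untreated afterwards, all went through behavioral testing from day 63, and the labels give an age of 11 weeks. Abbreviations used for the regions are PFC for prefrontal cortex, DMS for the dorsal medial striatum (dorsolateral striatum in the tissue label), NAc for nucleus accumbens, Amy for amygdala and VTA for ventral tegmental area. Each library holds 1 region of 1 mouse, and no label ties together the libraries of a mouse. The methods of the study report that 1 male VTA sample was removed as an outlier, without naming it. All 119 libraries were used here.

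Corticosterone, the main glucocorticoid of the mouse, is released under stress at the end of a hormonal chain that starts with corticotropin releasing hormone. It binds a glucocorticoid receptor (Nr3c1) and a mineralocorticoid receptor (Nr3c2) that act as transcription factors, and Fkbp5, a chaperone partner that lowers the receptor's affinity for the hormone, is itself induced by the receptor and so closes a feedback loop. Sgk1, Tsc22d3, Zbtb16, Plin4, Pdk4 and Cdkn1a are used as readouts of the receptor in many tissues, and Crhr1 carries the corticotropin releasing hormone signal into cells.

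The lowest total was 3090998 expected counts, in a VTA library of a vehicle-treated male (FTL_371), the median 22092612 and the highest 77042133. Defining genes of the regions were in place: mean levels in vehicle mice of Slc17a7, of projection neurons, were 1907 CPM (counts scaled to library size) in the PFC and 529 in the Amy, those of Drd1, of striatal neurons, 319.2 in the DMS and 167.2 in the NAc, and that of Slc6a3, of dopaminergic neurons, 1298 in the VTA. In the Amy, 11 of 12 libraries labelled female and 11 of 12 labelled male had the sex-linked expression of their label, and in the other regions all had. The 2 exceptions, FTL_344 (female, THC) and FTL_356 (male, THC), are kept in the values. Member results in the Amy with an unadjusted p under 0.05 are also given without them, while shares of all genes are not. One DMS library of a vehicle-treated female, FTL_285, had a summed level of 283.6 CPM of 8 cortical and basolateral projection neuron markers, against 15.6 to 18.3 CPM in the 5 others of its group. In bulk tissue, fewer cells of a type and less RNA per cell cannot be told apart.

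The first question was where in the brain the genes were expressed. In vehicle mice, Nr3c1 (chr18:39410545-39519421, minus strand, GRCm38, as are all coordinates given) was highest in the PFC, from 134.9 to 168.7 CPM with a median of 150.0, and lowest in the VTA, from 59.1 to 81.5 CPM with a median of 72.4. Every PFC library lay above every VTA library, and the mean ratio was 2.10 (log2 fold change 1.07, SE 0.05, edgeR adjusted p 1.69e-29). The DMS (112.3 ± 5.30 CPM, SD, n = 12), Amy (105.9 ± 9.27, n = 12) and NAc (100.2 ± 8.15, n = 12) lay between, and the Amy and NAc did not differ beyond their spread (log2 difference 0.03, SE 0.05, adjusted p 0.546). Nr3c2 (chr8:76899442-77245012, plus strand) had another order. It was highest in the NAc, from 54.8 to 75.9 CPM with a median of 66.2, and lowest in the VTA, from 22.4 to 29.8 CPM with a median of 25.8 (log2 fold change 1.34, SE 0.06, adjusted p 1.84e-30). The DMS (46.9 ± 3.73, n = 12) and Amy (46.6 ± 5.31, n = 12) did not differ beyond their spread (adjusted p 0.195), and the PFC, first for Nr3c1, came next to last at 35.3 ± 2.57 CPM (n = 12). On the scale of CPM per kilobase of exons, the mean level of Nr3c1 was above that of Nr3c2 in each region, with 19.6 against 5.45 in the PFC and 13.0 against 10.0 in the NAc.

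Crhr1 (chr11:104132855-104175523, plus strand), a receptor at the cell surface, was highest in the VTA, from 19.1 to 29.4 CPM with a median of 22.5, and lowest in the DMS, from 4.999 to 7.46 CPM with a median of 6.11. The regions did not overlap, with a mean ratio of 3.81 (log2 fold change 1.88, SE 0.07, adjusted p 5.59e-34). PFC libraries held 19.2 ± 2.17 CPM and Amy libraries 16.3 ± 1.49 (n = 12 each), so 3 regions stood well above the NAc (8.38 ± 0.73, n = 12) and the DMS.

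Fkbp5 (chr17:28399094-28517527, minus strand) set the striatum and Amy apart from the PFC and VTA. Its levels ran from 41.6 to 53.9 CPM (median 49.2) in the DMS, from 35.1 to 49.3 (median 43.6) in the NAc and from 33.2 to 43.6 (median 38.1) in the Amy. In the PFC they ran from 19.0 to 25.7 (median 22.9) and in the VTA from 18.2 to 27.6 (median 22.2). No library of the first 3 regions overlapped with the PFC or VTA, the step from the Amy to the PFC was 0.73 on the log2 scale (SE 0.06, adjusted p 1.41e-17), and the PFC and VTA did not differ beyond their spread (log2 difference 0.01, SE 0.06, adjusted p 0.896).

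**Figure D1:**
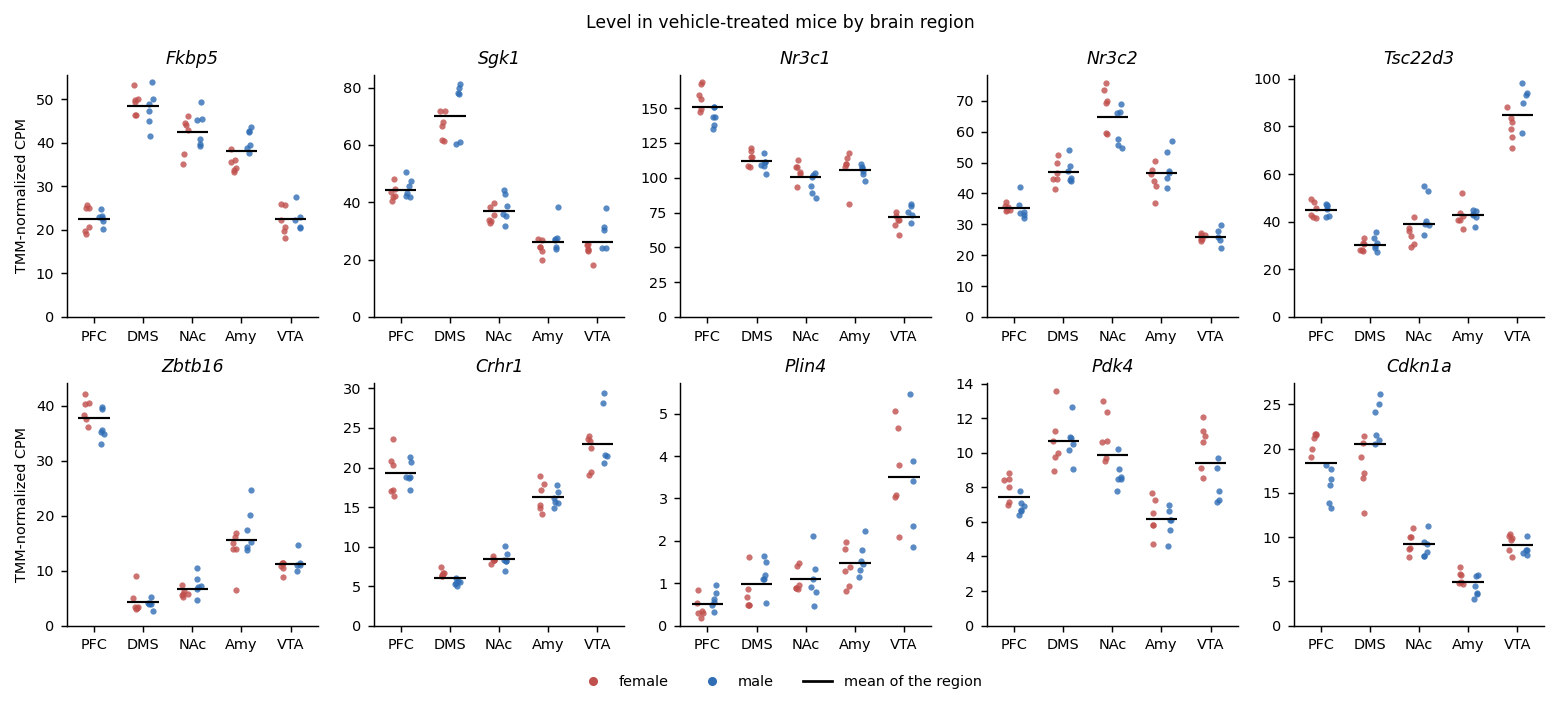
Levels of the 10 genes (y axes, TMM-normalized CPM, each from 0) in the vehicle libraries of 5 brain regions (x axes), with 1 point per library, red for female and blue for male, and a line at the mean of the region. Fkbp5 forms a high group (DMS, NAc, Amy) and a low group (PFC, VTA), Zbtb16 is highest in the PFC, and Tsc22d3, Plin4 and Crhr1 have their highest mean in the VTA.

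Sgk1 (chr10:21882184-21999903, plus strand) encodes a kinase that regulates ion channels and transporters, and its transcription answers to the glucocorticoid receptor. RefSeq lists several start sites for it on GRCm38.p6, and the 250 bases before the start at position 21993890 are shown because they hold the palindrome to which dimers of the receptor bind, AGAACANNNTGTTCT, without a mismatch, in capitals. The stretch is chr10:21993640-21993889 on the plus strand. It lies inside 5 Sgk1 transcripts of GENCODE M21 that start further upstream, over no exon, and Sgk1-202 starts at its end.

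Sgk1: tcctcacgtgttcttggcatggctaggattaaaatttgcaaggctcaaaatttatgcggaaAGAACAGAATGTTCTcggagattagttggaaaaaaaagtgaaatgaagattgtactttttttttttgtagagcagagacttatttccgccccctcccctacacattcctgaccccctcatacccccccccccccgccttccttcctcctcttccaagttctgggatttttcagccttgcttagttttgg

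Both arms of the palindrome read the same on the 2 strands, and it stands 189 to 175 bases before the start. Of 32851 RefSeq promoters of 300 bases, 3 (0.00913%) hold it without a mismatch, 606 (1.84%) with at most 2 mismatches, and 6233 (19.0%) hold its arm AGAACA on either strand. Of the 10 genes, 8 matched the table, with 16 promoters, and Nr3c1 and Zbtb16 did not. One other of these promoters, at a further Sgk1 start, held the palindrome with 2 mismatches. A match in letters is a description and does not show binding.

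Sgk1 levels ran from 60.2 to 81.4 CPM (median 69.8) in the DMS, above all other vehicle libraries, and from 40.3 to 50.5 (median 43.3) in the PFC. They were 36.9 ± 3.93 CPM in the NAc (n = 12), 26.2 ± 4.48 in the Amy (n = 12) and 26.0 ± 5.33 in the VTA (n = 11). The DMS exceeded the VTA 2.69-fold (log2 fold change 1.45, SE 0.07, adjusted p 2.63e-26), and the Amy and VTA did not differ beyond their spread (adjusted p 0.811). The DMS was thus the highest region for both Fkbp5 and Sgk1, but the PFC came next after it for Sgk1 and was near the lowest level for Fkbp5.

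Tsc22d3 (chrX:140539528-140600659, minus strand), also called GILZ, encodes a leucine zipper protein that mediates anti-inflammatory actions of glucocorticoids. It had the reverse order of Sgk1 at the ends, from 70.8 to 98.2 CPM (median 83.5) in the VTA and from 27.1 to 35.6 (median 30.2) in the DMS (log2 fold change 1.44, SE 0.06, adjusted p 3.08e-29). The PFC (45.1 ± 2.78), Amy (42.6 ± 3.80) and NAc (39.1 ± 7.87, n = 12 each) lay between. Neighbors in this order did not differ beyond their spread (adjusted p 0.206 and 0.214). The NAc was lower than the PFC, though by little (log2 difference -0.18, SE 0.06, adjusted p 0.00835). Plin4 (chr17:56100591-56109803, minus strand), a coat protein of lipid droplets, was the least abundant member per kilobase in every region and was likewise highest in the VTA, from 1.87 to 5.45 CPM (median 3.42), against 0.18 to 0.965 (median 0.518) in the PFC (log2 fold change 2.77, SE 0.23, adjusted p 7.55e-17). These values rest on few reads, down to 4 counts in a PFC library.

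Zbtb16 (chr9:48654297-48836222, minus strand), a zinc finger transcription factor also called PLZF, showed the widest range. PFC libraries held 33.1 to 42.1 CPM (median 38.0) and DMS libraries 2.74 to 8.95 (median 3.96), a mean ratio of 8.83 (log2 fold change 3.08, SE 0.14, adjusted p 1.16e-28). The Amy (15.6 ± 4.28, n = 12), VTA (11.1 ± 1.41, n = 11) and NAc (6.70 ± 1.56, n = 12) followed in order, and each neighboring pair was called. The DMS value of 8.95 belongs to FTL_285, the library with cortical marker transcripts. Pdk4 (chr6:5483351-5496309, minus strand), a kinase that restrains pyruvate dehydrogenase and so the use of glucose, was the most even member, from 8.94 to 13.6 CPM (median 10.6) in the DMS to 4.62 to 7.67 (median 6.11) in the Amy (log2 fold change 0.86, SE 0.08, adjusted p 1.68e-15). The DMS and NAc did not differ beyond their spread, nor did the NAc and VTA (adjusted p 0.103 and 0.247). The VTA was lower than the DMS, at a size under that of a call (log2 difference -0.24, SE 0.08, adjusted p 0.00483). Cdkn1a (chr17:29090976-29100727, plus strand), the cell cycle inhibitor p21, was split between the DMS (12.7 to 26.2 CPM, median 20.8) and PFC (13.3 to 21.7, median 18.6) above and the NAc (9.18 ± 1.21, n = 12), VTA (9.08 ± 0.98, n = 11) and Amy (3.06 to 6.63, median 4.87) below, with a log2 fold change of 2.10 between the DMS and Amy (SE 0.10, adjusted p 3.81e-28).

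A difference was called where the edgeR adjusted p over all genes tested was under 0.05 and the log2 fold change reached 0.4 in either direction. Of the 100 comparisons of a member between 2 regions of vehicle mice, 74 were called. This is read against a background in which large shares of all genes were called, 49.5% for DMS against PFC, 45.4% for NAc against PFC, 37.5% for Amy against PFC, 54.9% for VTA against PFC, 30.7% for NAc against DMS, 43.1% for Amy against DMS, 57.7% for VTA against DMS, 24.9% for Amy against NAc, 51.9% for VTA against NAc and 43.4% for VTA against Amy. In the pair with the highest background, VTA against DMS, 4 members (Tsc22d3, Zbtb16, Crhr1 and Plin4) were higher and 5 lower. Of the 28 other genes known as targets of the glucocorticoid receptor, 16 were higher and 7 lower in the VTA than in the PFC, with a median log2 fold change of 0.66 beside 0.03 for all 18331 genes, and 12 were higher and 4 lower in the DMS than in the PFC, with a median of 0.40 beside 0.09. Among 14 chaperones and coregulators of the receptors, 2 were higher and 4 lower in the VTA than in the PFC (median -0.17). Of 5 steroid handling genes tested, 3 were higher and 1 lower for the same pair (median 0.59). Of 9 genes of corticotropin releasing hormone and related peptide systems, 7 were called higher and 0 lower in the Amy than in the DMS.

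Cell type markers also differed between regions. The summed level of 10 oligodendrocyte markers ran from 10801 to 20162 CPM in VTA vehicle libraries, from 6320 to 8920 in the DMS and from 1890 to 4740 in the PFC, and all 10 were called higher in the VTA than in each other region. Of 8 endothelial markers, 8 were called higher in the VTA than in the PFC. Astrocyte marker sums overlapped between vehicle libraries of the PFC (2526 to 2997 CPM) and VTA (2297 to 3634). Microglial marker sums did so too (269.4 to 302.4 and 242.1 to 445.8 CPM). The 8 projection neuron markers, summing to 2444 to 2729 CPM in the PFC, were all called lower in the other 4 regions. The part of cell composition in the levels of the members was not tested. The PFC and DMS were deposited in 1 table and the NAc, Amy and VTA in another, so that a difference across tables includes any difference between them. Within a table, 31 of 40 member comparisons were called.

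The second question was whether THC in adolescence left a mark on these genes. None of the 10 members was called in any of the 10 comparisons of THC and vehicle groups of the same region and sex. Fold changes ran from -0.55 (Zbtb16, female DMS) to 0.56 (Plin4, female PFC) on the log2 scale. In the background, 0% of all genes were called in the PFC of either sex, the male DMS, the NAc of either sex, the male Amy and the VTA of either sex, 0.0127% in the female DMS and 1.57% in the female Amy. Of the 100 tests of members, 14 had an unadjusted p under 0.05, 5 with higher and 9 with lower expression under THC, against 8.15% of all 161267 tests, and DESeq2 also gave 14. The shares of all genes at that threshold were 5.84% in female and 4.07% in male PFC, 8.9% and 1.93% (DMS), 4.61% and 16.7% (NAc), 21.9% and 1.84% (Amy), and 9.02% and 5.92% (VTA), females first. The 2 with the highest shares, female Amy and male NAc, hold 6 of the 14 member tests.

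**Figure D2:**
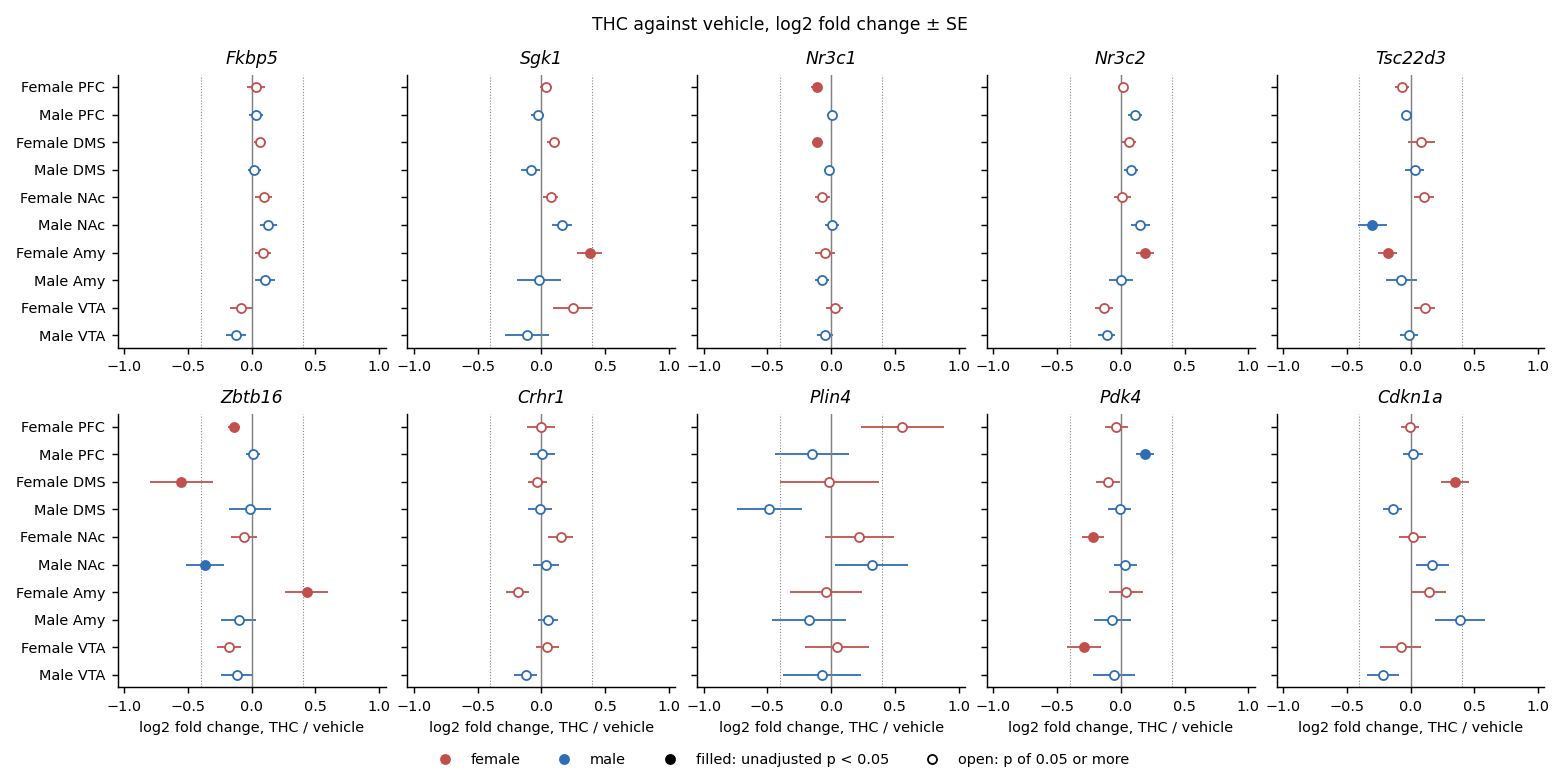
Log2 fold change of THC against vehicle (x axes) with its SE for each gene in 10 groups of region and sex (y axes), red for female and blue for male, filled where the unadjusted p was under 0.05, with dotted lines at the size required of a call. Most points lie within 0.4 of 0 and none was called, and the largest filled points are Sgk1 and Zbtb16 in the female Amy and Zbtb16 in the female DMS.

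Sgk1 in the female Amy came nearest to a call. Vehicle libraries held 20.03 to 27.3 CPM with a median of 24.4, and THC libraries 26.4 to 38.2 CPM with a median of 32.2. Thus 5 of 6 THC libraries lay above all vehicle libraries. The means were 24.3 ± 2.67 and 31.9 ± 4.35 CPM (SD, n = 6 each), and the log2 fold change was 0.38 (SE 0.10, p 0.00153, adjusted p 0.0523), rank 497 of 17003 genes by p. The adjusted p was 0.00723 with DESeq2 and 0.148 when all 4 Amy groups shared 1 fit.

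In the male Amy, Sgk1 ran from 23.7 to 38.5 CPM with vehicle (28.0 ± 5.37, n = 6) and from 16.9 to 38.4 with THC (27.7 ± 7.47, n = 6), and the groups overlapped. The THC effect in males minus that in females was -0.40 on the log2 scale (SE 0.21, p 0.0647, adjusted p 0.338), and -0.35 without FTL_344 and FTL_356 (SE 0.22, p 0.124). Without FTL_356 the male THC mean was 28.1 ± 8.27 CPM (n = 5). Without FTL_344 the female log2 fold change was 0.36 (SE 0.10, adjusted p 0.109). It was called when a THC library of the female group (replicate 3) was left out, at 0.42 with an adjusted p of 0.0458, and when the vehicle library FTL_338 was left out, at 0.41 with an adjusted p of 0.0299.

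**Figure D3:**
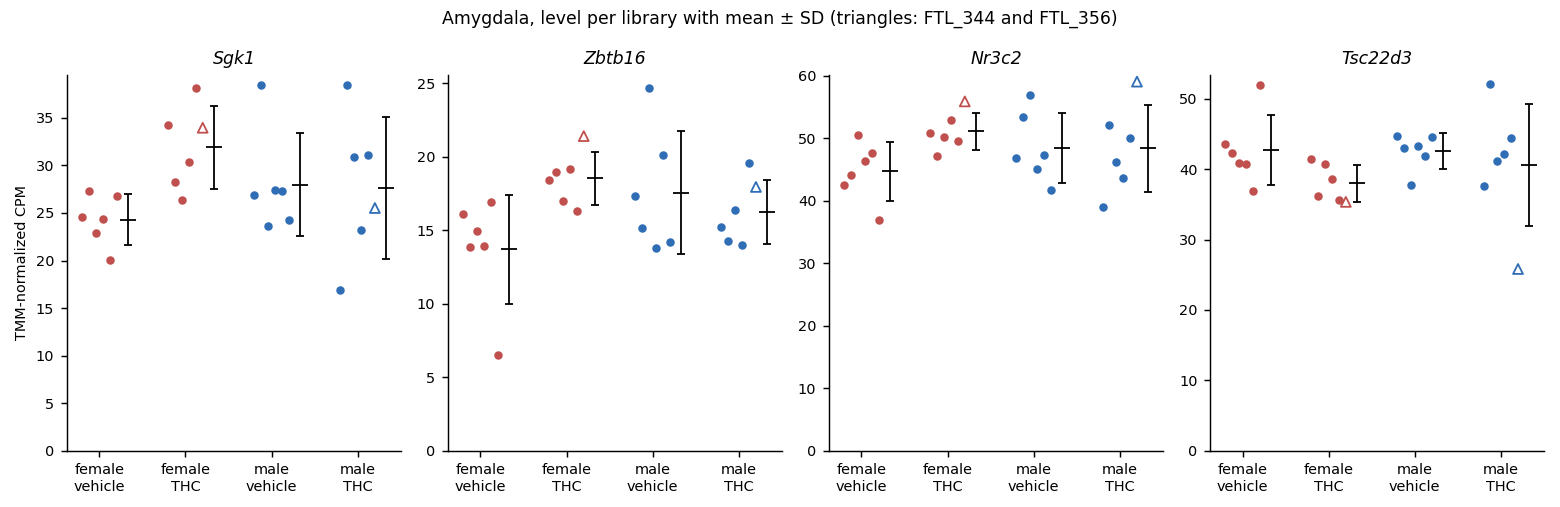
Levels of Sgk1, Zbtb16, Nr3c2 and Tsc22d3 in the Amy (y axes, TMM-normalized CPM, from 0) in 4 groups of sex and treatment (x axes), with 1 point per library and the mean ± SD beside it. Triangles are FTL_344 and FTL_356, and in females 5 of 6 THC libraries lie above all vehicle libraries for Sgk1 and for Zbtb16.

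Zbtb16 in the female Amy held 6.54 to 16.9 CPM (median 14.5) in vehicle libraries and 16.3 to 21.4 (median 18.7) in THC libraries. Here too 5 of 6 THC libraries lay above all vehicle libraries, with a log2 fold change of 0.43 (SE 0.17, p 0.0245, adjusted p 0.164). The lowest vehicle value was that of FTL_338, and without that library the log2 fold change was 0.28 (SE 0.08, adjusted p 0.0433). Nr3c2 held 37.0 to 50.5 CPM (median 45.2) with vehicle and 47.2 to 55.9 (median 50.6) with THC, so that 3 THC libraries lay above all others (log2 fold change 0.19, SE 0.07, adjusted p 0.147). Its lowest vehicle value was also that of FTL_338, and without that library the log2 fold change was 0.14 (SE 0.05, adjusted p 0.139). Tsc22d3 was on the other side, with 37.0 to 51.9 CPM (median 41.6) with vehicle and 35.4 to 41.4 (median 37.4) with THC (log2 fold change -0.18, SE 0.08, adjusted p 0.191). The vehicle value of 51.9 CPM was again that of FTL_338, and without it the log2 fold change was -0.11 (SE 0.06, p 0.0614). Without FTL_344 these log2 fold changes were 0.39 for Zbtb16, 0.16 for Nr3c2 and -0.16 for Tsc22d3, with adjusted p of 0.280, 0.272 and 0.318. The group differences of Sgk1 and Tsc22d3 thus had opposite signs, and neither was called.

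Regional markers differed between these libraries as well. The 8 cortical and basolateral projection neuron markers summed to 528.5 to 771.8 CPM in female vehicle libraries and to 833.5 to 1190.0 in female THC libraries, with no overlap, and 4 were called higher with THC (Slc17a7, Tbr1, Rspo2 and Neurod6), with a log2 fold change of 0.76 for Slc17a7. Markers of the hypothalamus and medial amygdala summed to 102.5 to 154.9 CPM with vehicle and 72.6 to 97.0 with THC, and 2 of 7 tested were called lower (Lhx6 and Cartpt). Without FTL_344 the 4 projection neuron calls and that of Lhx6 stood, while Cartpt had an adjusted p of 0.0707. Of 7 medium spiny neuron markers, 6 were higher with THC at an unadjusted p under 0.05 and 0 were called. Choroid plexus markers varied widely in both groups, with sums of 8.79 to 1132 CPM with vehicle and 8.24 to 3500 with THC (2188 in FTL_344). With a score of the first 2 marker lists as a covariate, the log2 fold change of Sgk1 was 0.56 (SE 0.20, p 0.0136, adjusted p 0.511). The other 3 genes no longer had an unadjusted p under 0.05 in that fit, with 0.31 for Zbtb16 (SE 0.36, p 0.404), 0.19 for Nr3c2 (SE 0.15, p 0.211) and -0.21 for Tsc22d3 (SE 0.17, p 0.240). The score correlated with treatment at r = 0.87 over 12 libraries, so this fit cannot tell the 2 apart. The part of the sampled subregions in the levels of Sgk1, Zbtb16, Nr3c2 and Tsc22d3 was not tested.

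In the other regions, too, the THC and vehicle libraries overlapped for every member with an unadjusted p under 0.05. Nr3c1, the receptor itself, ran in the female PFC from 147.0 to 168.7 CPM with vehicle (158.1 ± 8.88, n = 6) and from 133.2 to 158.8 with THC (146.2 ± 8.50, n = 6), a log2 fold change of -0.11 (SE 0.04, p 0.0151, adjusted p 0.801). The same size was seen in the female DMS, with 114.4 ± 5.35 CPM under vehicle and 105.8 ± 6.38 under THC (n = 6 each, log2 fold change -0.11, SE 0.04, adjusted p 0.480). In each, 3 of 6 THC libraries lay below all vehicle libraries. Over all 10 comparisons Nr3c1 stayed between -0.11 and 0.03 on the log2 scale, the narrowest range of the 10 genes.

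Zbtb16 was lower with THC in 8 of 10 comparisons, and 3 of these had an unadjusted p under 0.05. In the female PFC, vehicle libraries held 36.1 to 42.1 CPM (median 39.3) and THC libraries 33.7 to 38.0 (median 35.6), with 3 THC libraries below all others (log2 fold change -0.14, SE 0.05, adjusted p 0.786). In the male NAc, vehicle libraries held 4.61 to 10.4 CPM (median 7.10) and THC libraries 5.11 to 6.62 (median 5.69), so the THC values lay inside the vehicle range (log2 fold change -0.37, SE 0.15, adjusted p 0.242). In the female DMS, the log2 fold change was -0.55 (SE 0.25, adjusted p 0.540), with 3.12 to 8.95 CPM (median 3.46) under vehicle and 2.60 to 3.70 (median 3.16) under THC. Without FTL_285, the vehicle library at 8.95 CPM, it was -0.23 (SE 0.15, p 0.138).

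Tsc22d3 in the male NAc held 34.3 to 55.0 CPM (median 39.6) in vehicle libraries and 31.7 to 40.3 (median 34.3) in THC libraries, and 3 THC libraries lay below all vehicle libraries (log2 fold change -0.30, SE 0.11, p 0.0209, adjusted p 0.233). All 7 medium spiny neuron markers were higher with THC in these libraries at an unadjusted p under 0.05, with a median log2 fold change of 0.36 and 0 called. Their part in the values of Tsc22d3 and Zbtb16 was not tested.

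Pdk4 had an unadjusted p under 0.05 in 3 comparisons, in both directions. In the male PFC its mean was 6.93 ± 0.495 CPM with vehicle and 7.91 ± 0.382 with THC (n = 6 each, log2 fold change 0.19, SE 0.07, adjusted p 1.00). In the female NAc it was 11.0 ± 1.42 and 9.48 ± 0.713 (n = 6 each, log2 fold change -0.22, SE 0.09, adjusted p 0.991), and in the female VTA 10.4 ± 1.35 and 8.46 ± 1.70 (n = 6 each, log2 fold change -0.29, SE 0.13, adjusted p 0.531). In the female VTA, 4 of 6 THC libraries lay below all vehicle libraries. There, 4 of 7 astrocyte and 6 of 6 microglial markers were lower with THC at an unadjusted p under 0.05, with median sums of 3240 and 2375 CPM for the astrocyte and 345.2 and 268.4 for the microglial list, vehicle first, and hypothalamic markers had median sums of 38.2 and 88.2 CPM. Their part in the values of Pdk4 was not tested. Cdkn1a in the female DMS held 12.7 to 21.4 CPM (median 18.1) with vehicle and 20 to 26.0 (median 22.4) with THC, with 3 THC libraries above all vehicle libraries (log2 fold change 0.35, SE 0.11, p 0.00654, adjusted p 0.332).

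Fkbp5, Crhr1 and Plin4 had no unadjusted p under 0.05 in any of the 10 comparisons. Fkbp5 was higher with THC in 8 of 10, between -0.13 and 0.13 on the log2 scale, with a smallest p of 0.0726. Crhr1 was higher in 5 and lower in 5, between -0.18 and 0.15. Plin4 ran from -0.48 in the male DMS to 0.56 in the female PFC, the widest range, at the lowest counts.

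The related lists gave few calls. Among the other targets of the receptor, 0 were called in any of the 10 comparisons, and those with an unadjusted p under 0.05 numbered 4 higher and 2 lower of 26 in the female Amy, 4 and 1 in the female DMS, 4 and 0 in the female PFC, 3 and 0 in the female NAc, 0 and 2 in female VTA, 3 and 1 in male NAc, 0 and 1 in the male DMS, and 0 in the other male regions. In the female Amy, 3 of them had an adjusted p under 0.05 at a size under that of a call. Klf9, a transcription factor, held 104.9 ± 6.27 CPM with vehicle and 130.2 ± 10.4 with THC (n = 6 each, log2 fold change 0.30, adjusted p 0.0224). The changes were 0.38 on the log2 scale for Gpd1, a glycerol phosphate dehydrogenase (adjusted p 0.0321), and 0.32 for Per1, a clock gene (adjusted p 0.0499). Of 14 chaperones and coregulators 0 were called, with at most 5 at an unadjusted p under 0.05, in the male NAc, 4 of them lower. Steroid handling genes gave 0 calls and at most 2 at that threshold. Of the corticotropin releasing hormone and related peptides, Ucn3, a ligand of the second receptor of that family, fell in the female Amy from 15.3 ± 5.33 to 5.66 ± 2.43 CPM (n = 6 each, log2 fold change -1.45, adjusted p 0.0363), and Ucn3 was the sole call of that list. Without FTL_344 no gene of the list was called, with an adjusted p of 0.0614 for Ucn3 (log2 fold change -1.503), 0.0679 for Gpd1 and 0.0856 for Per1, while that of Klf9 was 0.0430. The libraries are those in which markers of the hypothalamus and medial amygdala were lower and projection neuron markers higher with THC, and the part of this in the values of Ucn3, Klf9, Gpd1 and Per1 was not tested.

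Clock and immediate early genes, which also answer to handling and time of day, had 1 call in the 10 comparisons, Npas2 in the female Amy (log2 fold change 0.72, adjusted p 0.0259, and 0.73 and 0.0482 without FTL_344). At an unadjusted p under 0.05, 7 of 14 clock genes were higher with THC in the female Amy and 7 in the male NAc, and 4 were lower in the female DMS. Immediate early genes were lower for 6 of 10 in the female PFC (median -0.48) and 6 in the female DMS (median -0.56), and higher for 6 in the male NAc (median 0.33) and 5 in the male DMS (median 0.26). Their part in the values of the 10 genes was not tested.

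With both sexes in 1 fit, 0 of 50 member tests were called and 5 had an unadjusted p under 0.05, while 0% of all genes were called in any region. Shares of all genes under that unadjusted threshold were 4.81% (PFC), 4.88% (DMS), 10.2% (NAc), 7.05% (Amy) and 9.99% (VTA). In the NAc, Fkbp5 held 42.5 ± 4.11 CPM with vehicle and 46.2 ± 4.02 with THC (n = 12 each, log2 fold change 0.11, adjusted p 0.450), Sgk1 36.9 ± 3.93 and 40.2 ± 3.88 (n = 12 each, 0.12, adjusted p 0.443), and Zbtb16 6.70 ± 1.56 and 5.78 ± 0.567 (n = 12 each, -0.21, adjusted p 0.469). Cdkn1a in the Amy held 4.91 ± 1.07 and 5.94 ± 1.303 CPM (n = 12 each, 0.26, adjusted p 0.706), and 0.25 without FTL_344 and FTL_356. Nr3c2 in the VTA held 26.0 ± 1.91 CPM in 11 vehicle and 24.0 ± 2.17 in 12 THC libraries (-0.12, adjusted p 0.441).

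The THC effect was then compared between the sexes. No member was called for the interaction of sex and treatment, nor was any gene in the PFC, DMS, NAc or VTA (0%), and 0.0059% were in the Amy. Of 50 member tests, 5 had an unadjusted p under 0.05, against 8.97% of all, with 5.87% (PFC), 5.9% (DMS), 11% (NAc), 15.8% (Amy) and 6.16% (VTA) by region. Cdkn1a in the DMS had the smallest p. Its mean was 18.0 CPM in female vehicle, 22.8 in female THC, 23.1 in male vehicle and 20.9 in male THC libraries, and the male effect minus the female effect was -0.49 on the log2 scale (SE 0.14, p 0.00193, adjusted p 0.618). The others were Tsc22d3 in the NAc (-0.41, adjusted p 0.385), Zbtb16 in the Amy (-0.53, adjusted p 0.288, and -0.52 without FTL_344 and FTL_356), Pdk4 in the NAc (0.25, adjusted p 0.451) and Nr3c1 in the PFC (0.12, adjusted p 0.842).

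Male and female mice were compared over both treatments. Shares and values for the Amy include FTL_344 and FTL_356, whose sex-linked expression went against their labels, unless stated otherwise. No member was called, beside shares of all genes of 0.237% (PFC), 2.64% (DMS), 0.25% (NAc), 0.0118% (Amy) and 0.113% (VTA), but 2 members had an adjusted p under 0.05 at a size under 0.4. Of 50 member tests, 8 had an unadjusted p under 0.05, 2 with higher and 6 with lower levels in males, against 14.7% of all tests, with 16.3% (PFC), 27.8% (DMS), 16.4% (NAc), 6.06% (Amy) and 7.19% (VTA) by region. Cdkn1a in the PFC held 20.8 ± 2.05 CPM in females and 16.0 ± 1.71 in males (n = 12 each), and all 12 male libraries lay below all 12 female libraries (log2 fold change -0.37, SE 0.06, adjusted p 0.00026). The vehicle groups (20.8 ± 1.10 and 15.9 ± 1.99) and the THC groups (20.8 ± 2.84 and 16.1 ± 1.56, n = 6 each) were alike in this, and without FTL_272, the female library at 26.4 CPM, the log2 fold change was -0.33 (adjusted p 0.000168). In the other regions it was 0.13 (DMS), 0.01 (NAc), -0.16 (Amy) and -0.22 (VTA), with adjusted p from 0.332 to 0.966. Cdkn1a in the VTA held 9.17 ± 1.85 CPM in females (n = 12) and 7.96 ± 1.23 in males (n = 11). The sexes overlapped there, with an unadjusted p of 0.0422 and an adjusted p of 0.681.

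Crhr1 in the DMS held 6.52 ± 0.355 CPM in females and 5.46 ± 0.476 in males (n = 12 each). In this region 11 of 12 male libraries lay below all female libraries (log2 fold change -0.24, SE 0.05, adjusted p 0.00647), and without FTL_285 the value was -0.22 (adjusted p 0.00828). In the DMS, 5 of 8 endothelial and 5 of 7 medium spiny neuron markers were also lower in males at an unadjusted p under 0.05, a threshold that 27.8% of all genes passed in either direction there, and their part was not tested. Fkbp5 in the Amy held 36.3 ± 2.76 CPM in females and 42.3 ± 4.50 in males (n = 12 each), with 7 of 12 male libraries above all female libraries (log2 fold change 0.22, SE 0.05, p 0.000125, adjusted p 0.192). Its adjusted p was 0.0157 with DESeq2, and without FTL_344 and FTL_356 the log2 fold change was 0.20 (adjusted p 0.181).

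In the NAc, 3 members had an unadjusted p under 0.05 for sex. Pdk4 held 10.2 ± 1.32 CPM in females and 8.85 ± 0.871 in males (n = 12 each), with 5 of 12 male libraries below all female ones (log2 fold change -0.20, SE 0.06, adjusted p 0.114). Sgk1 held 36.7 ± 2.79 and 40.4 ± 4.60 CPM (n = 12 each), with 7 of 12 male libraries above all female ones (0.14, SE 0.05, adjusted p 0.142). Nr3c1 was lower in males by little in the NAc, at 102.5 ± 8.02 and 96.2 ± 6.30 CPM (n = 12 each, -0.09, adjusted p 0.289), and in the PFC, at 152.1 ± 10.3 and 143.8 ± 6.14 CPM (n = 12 each, -0.08, adjusted p 0.160), and the sexes overlapped in both.

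**Figure D4:**
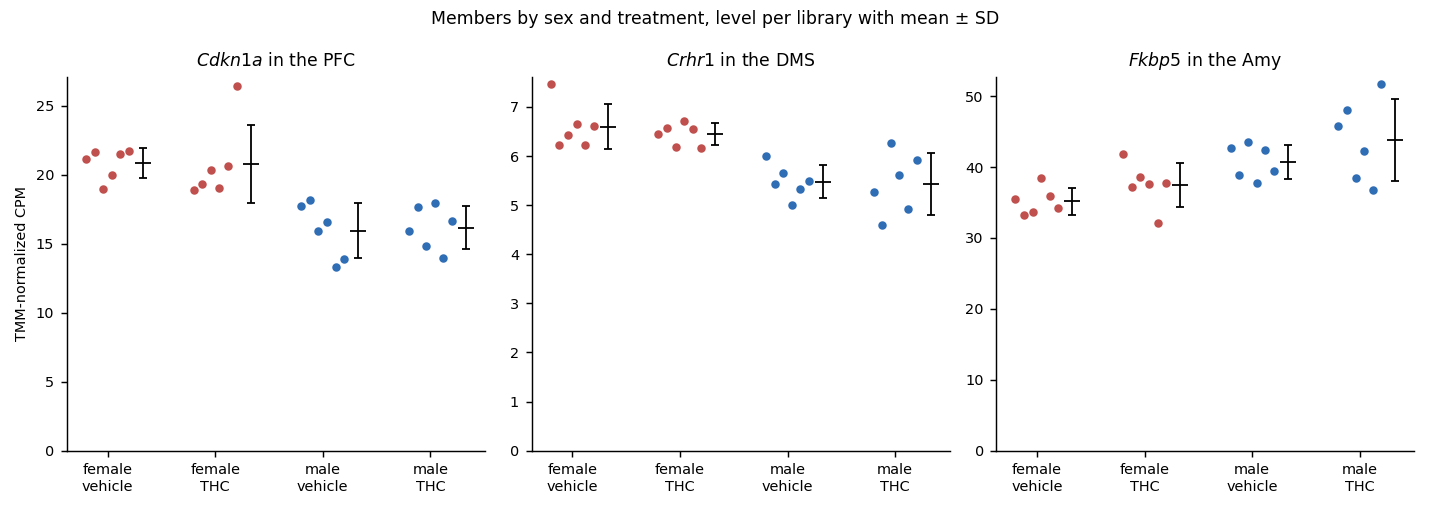
Levels (y axes, TMM-normalized CPM, from 0) of Cdkn1a in the PFC, Crhr1 in the DMS and Fkbp5 in the Amy in 4 groups of sex and treatment (x axes), with 1 point per library and the mean ± SD. All 12 male libraries lie below all 12 female libraries for Cdkn1a and 11 of 12 do for Crhr1, while 7 of 12 male libraries lie above all female libraries for Fkbp5.

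Targets of 1 receptor might vary together from library to library. Each log2 CPM value was taken as its deviation from the mean of its group of region, sex and treatment, and members were correlated over the 119 libraries, which share mice and depth in ways the labels do not give, so no p is attached. The 45 pairs had a median r of 0.06, with 2 pairs over 0.3 and 0 under -0.3. Sgk1 and Tsc22d3 were highest (r = 0.35), at 0.81 in the VTA, 0.40 in the PFC, 0.38 in the Amy, 0.07 in the NAc and -0.14 in the DMS. Nr3c2 and Zbtb16 followed (r = 0.33, and 0.23 without 5 libraries that stood apart in markers, depth or sex). Of 18932 genes, 97.7% had a lower r with Sgk1 than Tsc22d3 had. For Nr3c2, the share of genes with a lower r than Zbtb16 was 94.5%. With Spearman's rho the pairs over 0.3 were Nr3c2 with Zbtb16 (0.32) and Nr3c2 with Pdk4 (0.31). By that measure Sgk1 and Tsc22d3 were at 0.27, and at 0.76 in the VTA. Fkbp5 had r = -0.09 with Sgk1 over all libraries, at 0.53 (DMS), 0.05 (NAc), -0.11 (PFC), -0.16 (VTA) and -0.28 (Amy). With Tsc22d3 it had r = -0.16, from -0.41 in the NAc to 0.14 in the DMS.

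**Figure D5:**
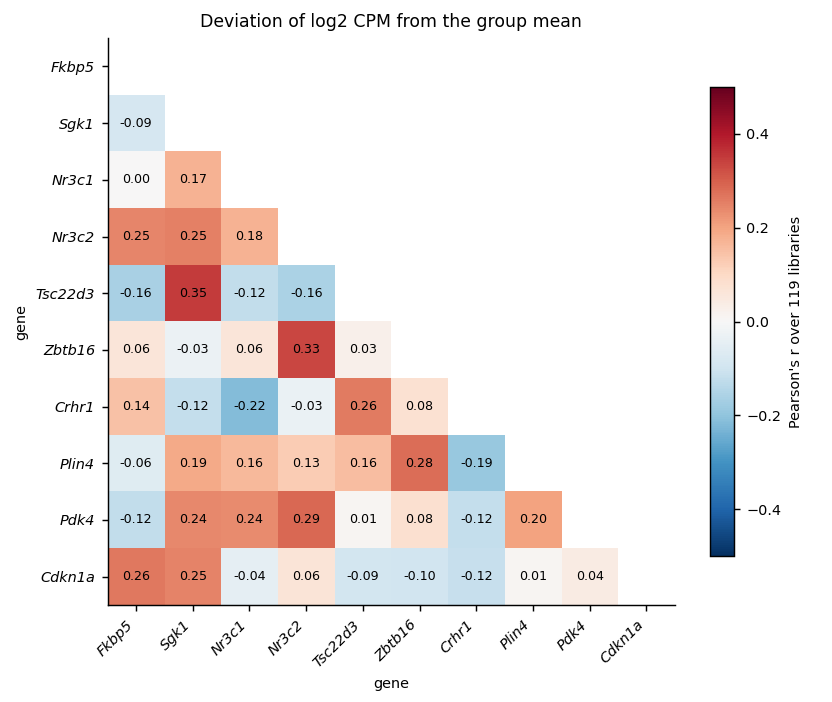
Pearson's r (color and number) between members over 119 libraries, from deviations of log2 CPM from the group mean, with genes on both axes. Sgk1 with Tsc22d3 (0.35) and Nr3c2 with Zbtb16 (0.33) are the 2 pairs over 0.3.

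With the mean deviation of the 28 other target genes, r was 0.48 for Sgk1, 0.34 for Tsc22d3, 0.19 for Fkbp5 and 0.09 for Nr3c1. Cell type lists gave values of like size: Sgk1 had r = 0.43 with microglial and 0.39 with oligodendrocyte markers, Tsc22d3 had 0.40 with oligodendrocyte markers, Fkbp5 had 0.41 with neuron markers and Pdk4 had 0.41 with astrocyte markers. Among 18932 genes, those most like each member over the 119 libraries were Pwwp2b, Septin5 and Camk2b for Fkbp5 (highest r 0.56), Sgk3, Ado and Pcp4l1 for Sgk1 (0.65), Ttc14, Zfp638 and Ranbp2 for Nr3c1 (0.70), and Pitpnm2, Slit3 and Dusp18 for Nr3c2 (0.60). For Tsc22d3 they were Vamp1, Map1lc3b and Lgi3 (0.64), for Zbtb16 Rnf130, Map3k9 and Dync1h1 (0.64), and for Crhr1 Klhdc8a, Dnajc21 and Cdh10 (0.53). For Plin4 they were C4b, Rhou and Serpind1 (0.51), for Pdk4 Ctdsp2, Msn and Ahnak (0.57), and for Cdkn1a Grasp, Anxa6 and Pmepa1 (0.56). Sgk3 is a paralog of Sgk1, and shared reads between them were not examined. No member was among the 3 genes most like another member.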

How the data were processed

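The authors deposited expected counts per gene, from polyA-selected, stranded libraries sequenced in pairs, which the submitters' processing notes and the methods place with cutadapt 2.9, STAR 2.7.3a and RSEM 1.3.1 on mm10. Between 4.75% and 5.00% of the deposited expected counts were not whole, and all were rounded. Groups came from the sample titles. Counts were tested in R 4.3.3 with edgeR 4.0.16 (filterByExpr, TMM, robust quasi-likelihood F test, two-sided), with Benjamini-Hochberg adjustment over all genes, and the steps were tested on simulated data. CPM were TMM-normalized, and log2 CPM had a prior count of 2. Within each region and sex, THC was compared with vehicle in those libraries alone. The fits over both sexes, of sex by treatment and of sex used the 4 groups of a region, and region pairs used vehicle libraries with sex as a covariate. All 10 members were named, with values where called or at an unadjusted p under 0.05, and list genes where called or among the 4 of smallest p. The members and lists were chosen with earlier results of these data known. Alternatives were DESeq2 1.42.0, its size factors, no filter, 1 fit per region, a marker score, single deposited tables, THC libraries for the regions and each library left out of the female Amy and male VTA. The omission of FTL_285, FTL_272, FTL_344 (for list genes), FTL_356 or sets of libraries that stood apart, and rank correlation, were chosen after seeing the data. No column of values was left unused (0). The labels do not say which libraries share a mouse, and p-values measure the spread between libraries.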

Additional observations from a re-analysis of the deposited data

Results flagged for a closer look

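In 12 of the 200 combinations of member and group, 1 library stood far from the others of its group, where chance gives about 1 in 20, or 10. FTL_285 (female DMS, vehicle) was high in 3 members, with 8.95 CPM of Zbtb16 (others 3.12 to 5.05), 7.46 of Crhr1 (6.22 to 6.65) and 1.61 of Plin4 (0.488 to 0.863), and its cortical and basolateral markers summed to 283.6 CPM (15.6 to 18.3). FTL_338 (female Amy, vehicle) was low in Nr3c1 at 81.3 CPM (107.6 to 117.6) and in Zbtb16 at 6.54 (13.9 to 16.9), with 1713 CPM of astrocyte markers (2393 to 2792) and 1132 of choroid plexus markers (8.79 to 867.6). Sgk1 stood apart in 3 libraries, at 38.5 CPM in FTL_346 (male Amy, vehicle; 23.7 to 27.4), whose medium spiny neuron markers summed to 1690 CPM (747.8 to 973.6), at 36.1 in FTL_327 (male NAc, THC; others from 43.0 to 46.2) and at 18.1 in FTL_358 (female VTA, vehicle; 23.1 to 25.5). Zbtb16 was at 42.6 CPM in FTL_283 (male PFC, THC; 34.2 to 36.5) and at 8.83 in FTL_360 (female VTA, vehicle; 10.5 to 11.5). Cdkn1a was at 26.4 CPM in FTL_272 (female PFC, THC; 18.9 to 20.6) and at 10.1 in FTL_371 (male VTA, vehicle; 7.998 to 8.55), the library of lowest depth, whose dopaminergic markers summed to 1125 CPM (2488 to 3289). The part of these markers and of depth in the values was not tested.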

How the results depend on the processing

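Member values with an unadjusted p under 0.05, and those of the highest against the lowest region, kept their direction under the alternatives run. Of these, 6 single values had an adjusted p under 0.05 only under the alternative, and all others kept their side of it. Some of the other member values reversed. With the marker score in the female Amy, the log2 fold change went from 0.14 to -0.33 for Cdkn1a. It went from 0.09 to -0.15 for Fkbp5 and from -0.04 to 0.05 for Plin4. In the female Amy the score correlated with treatment at r = 0.87, so that fit cannot tell the 2 apart. Without FTL_356 in the male Amy, it went from -0.07 to 0.03 for Tsc22d3 and from -0.18 to 0.04 for Plin4. Within regions and sexes, the count of members with an adjusted p under 0.05 was 0 and became 1 with DESeq2 and 1 without a filter. The 4 with an unadjusted p under 0.05 in the Amy became 2 with the marker score as a covariate. In that fit Sgk1 kept that threshold in females, Zbtb16, Nr3c2 and Tsc22d3 lost it, and Cdkn1a in males passed it (log2 fold change 0.42, p 0.0171). For Nr3c2 the log2 fold change was 0.19 in both fits, and its SE went from 0.07 to 0.15. For Tsc22d3 the log2 fold change went from -0.18 to -0.21 and its SE from 0.08 to 0.17. Leaving out 1 library of the female Amy gave 0 to 1 members called, 0 to 2 with an adjusted p under 0.05 and 2 to 5 with an unadjusted one. Leaving out 1 library of the male VTA gave 0 to 1 for THC and 0 to 2 for sex at the unadjusted threshold. Without FTL_285, members under that threshold in the DMS went from 0 to 2 for THC over both sexes and from 1 to 3 for sex, and without FTL_344 and FTL_356 those for sex in the Amy went from 1 to 2. Without 5 libraries, pairs with r over 0.3 went from 2 to 1. With rank correlation the count stayed at 2, but Sgk1 with Tsc22d3 was no longer among them. The causes were not tested. Of 100 region comparisons, 73 to 75 were called under the alternatives. No paired analysis was possible because no label ties the libraries of a mouse together, and the replicate numbers used here only follow the order of deposit. Plin4, at few counts, is limited by depth.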
